A study of Mus musculus with 8 samples.

Results

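The genes described here encode subunits and assembly factors of respiratory complex I, the NADH dehydrogenase of the mitochondrial inner membrane. They were taken from a deposited lung gene table as every row whose symbol starts with Nduf and whose mean over the 8 libraries was at least 1 CPM (counts per 1000000 reads). This gave 42 of the 15728 listed genes. One more Nduf row, a second entry under the name Ndufb8 that a newer annotation calls Gm20538, averaged 0.72 CPM and was left out. Of the genes kept, the lowest was Ndufaf4 with a mean of 16.3 CPM, so no member lay near the limit. Ndufb1 was not analysed here.

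Total RNA from lung was profiled by CAGE (cap analysis of gene expression), a method that reads RNA from its capped end, so that a transcript is counted at its start site. There were 4 wild type and 4 triple knockout libraries (triply n/i/eNOSs-/-), the latter from mice without the neuronal (n), inducible (i) and endothelial (e) isoforms of nitric oxide synthase. Both groups were C57BL/6J by background, 4 weeks old and unexposed, and the labels give no sex, litter or time of collection. The labels number the replicates without saying whether each came from a separate animal, so p-values measure the spread between these samples, which may be technical. Wild type libraries held 15598154 to 18593913 reads and knockout libraries 13014134 to 15096188 reads, as recovered from the step that 1 read makes in CPM. The knockout libraries were thus all shallower than the wild type ones. Nos3, the endothelial isoform, averaged 19.8 ± 2.07 CPM (SD, n = 4) in wild type and 7.37 ± 1.49 CPM (n = 4) in the knockout, and the other isoforms were not analysed here. The lung markers Sftpc, Scgb1a1, Ager, Cldn18 and Pecam1 were all detected, with summed levels of 150707 to 166373 CPM in wild type against 117329 to 144188 CPM in knockout.

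Complex I oxidises NADH in the mitochondrial matrix, passes the electrons to ubiquinone and pumps protons across the inner membrane. Its matrix arm holds the N module, where NADH is oxidised by flavin and iron-sulphur centres, and the Q module, where ubiquinone is reduced. The membrane arm carries out the pumping and is built around subunits encoded in mitochondrial DNA. Nuclear genes encode the redox-active core subunits, a larger number of accessory subunits that surround the core, and assembly factors that are not part of the finished enzyme. Nitric oxide is known as an inhibitor of the respiratory chain and, through cyclic GMP, as a signal linked to mitochondrial biogenesis.

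Complex I transcripts were mostly higher in the knockout lungs, by modest amounts. Of the 42 genes 21 rose, 3 fell and 18 were not called by limma at an adjusted p under 0.05. The background was 16.6% of 14065 tested genes called higher and 14.3% called lower, or 30.9% called in either direction, against 50% and 7.14% of the complex I genes. The median log2 fold change, knockout minus wild type on log2(CPM + 0.5), was 0.20 for the 42 genes and 0.01 for all genes tested. The genes that rose were at least 12.4% above wild type, with a median of 22.2%, and Ndufv3 was 48.8% above. Values of the genotypes did not overlap for 23 genes that were higher and 4 that were lower in the knockout, where 16.8% and 14.3% of all tested genes showed this (31.2% in either direction). With quantile normalization in place of CPM scaling 12 genes rose and 4 fell, and their median log2 fold change was 0.13. Over all 14065 tested genes 2381 then rose and 2150 fell, against 2341 and 2010 with CPM scaling. The drop in higher calls among the complex I genes was thus not seen over all genes.

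**Figure D1:**
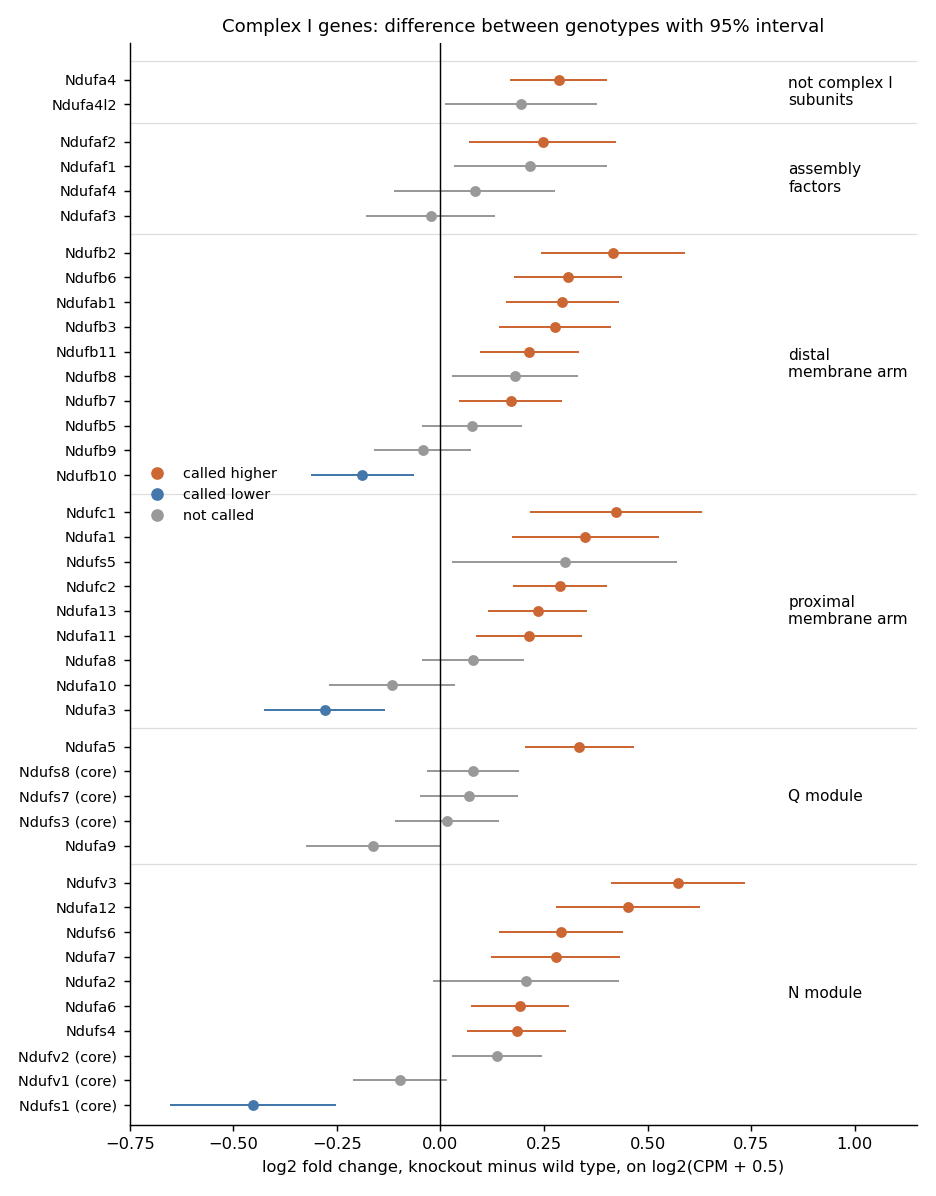
Log2 fold change (knockout minus wild type, on log2(CPM + 0.5)) of 40 complex I genes, grouped by their place in the complex, with points for the estimate and bars for the limma 95% interval. Genes called higher, from 0.17 (Ndufb7) to 0.57 (Ndufv3), lie in every group, while Ndufs1, Ndufa3 and Ndufb10 are the ones called lower. Ndufb4 is left out because its interval, -3.27 to 3.10, exceeds the axis.

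The rise was seen in each knockout library. Relative to each gene's own wild type mean, the median shift of 41 genes (Ndufb4 left out, for the reason given below) was 0.12, 0.19, 0.20 and 0.23 on the log2 scale in knockout replicates 1 to 4. In the wild type libraries, which define the zero, it lay between -0.0032 and 0.0203. Knockout replicate 1 held the smallest shift, with 30 genes above the wild type mean and 11 below, and each of the other 3 knockout libraries had 33 above and 8 below. Wild type replicates 1 to 4 had 25, 23, 24 and 20 genes above and 16, 18, 17 and 21 below. No shift by library over all tested genes is given here. The CPM of 35 structural subunits, again without Ndufb4, added up to 8843, 8545, 8779 and 8869.9 in the 4 wild type libraries and to 9547.5, 10118, 10256 and 10645 in the 4 knockout libraries, so the genotypes were separate. The mean sum was 1.16 times that of wild type. In RNA from whole lung, more cells that express these genes and more of their RNA per cell cannot be told apart.

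**Figure D2:**
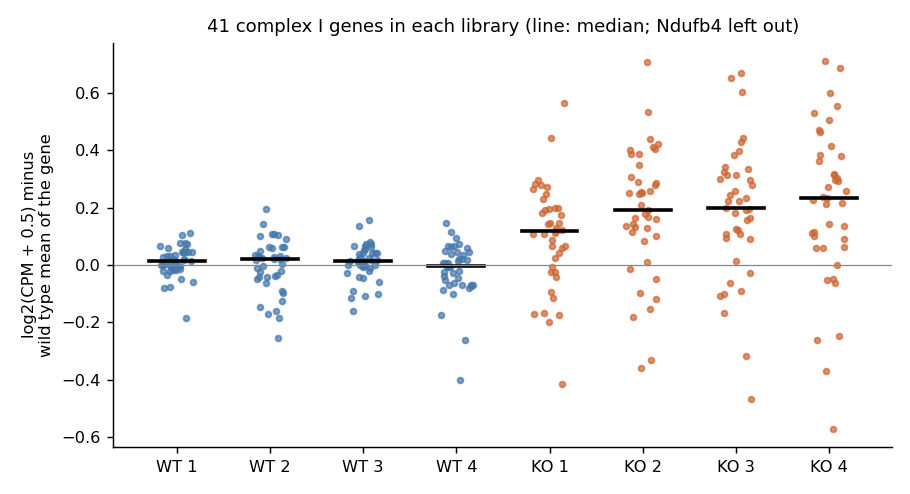
Each point is 1 of 41 complex I genes, as log2(CPM + 0.5) in a library minus the mean of that gene over the 4 wild type libraries, and the black line is the median of the library. Wild type medians lie near 0 by construction, and the knockout medians lie at 0.12, 0.19, 0.20 and 0.23.

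Among the core subunits, the catalytic part of the enzyme, Ndufs1 fell, and Ndufv1, Ndufv2, Ndufs3, Ndufs7 and Ndufs8 were not called. Ndufs1, the large iron-sulphur subunit of the N module, read 55, 58.9, 56.1 and 44.4 CPM in wild type against 39.9, 41.5, 38.4 and 35.7 CPM in knockout. Wild type replicate 4 was the lowest of its group and still above every knockout library. The fall was 0.45 on the log2 scale (log2 fold change -0.45, SE 0.0911, adjusted p = 0.00396). The Ndufs1 gene overlaps Eef1b2, a translation elongation factor gene on the opposite strand with a mean of 218 CPM. Eef1b2 averaged 222 ± 10.2 CPM in wild type against 214 ± 13.2 CPM in knockout.

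Ndufv1 carries the flavin that accepts electrons from NADH. It read 111, 116, 116 and 115 CPM in wild type against 106, 105, 107 and 109 CPM in knockout, without overlap but with an adjusted p = 0.173 (95% interval of the log2 difference -0.21 to 0.015). Its N module partner Ndufv2, which also holds an iron-sulphur centre, read 196, 198, 188 and 193 CPM in wild type against 206, 217, 217 and 213 CPM in knockout. That set did not overlap either, and the adjusted p was 0.0585 (interval 0.027 to 0.246).

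Ndufs3, Ndufs7 and Ndufs8 belong to the Q module. Ndufs3 gave 110.3, 108, 108 and 101 CPM in wild type against 109, 103, 114 and 107 CPM in knockout, with overlapping ranges (interval -0.109 to 0.142). Ndufs7, which holds the last iron-sulphur centre before ubiquinone, gave 317, 317, 312 and 296 CPM in wild type against 309, 333, 339 and 324 CPM in knockout (interval -0.049 to 0.188). Ndufs8 gave 249, 254, 257 and 237 CPM in wild type against 259.5, 265, 269 and 260.3 CPM in knockout (interval -0.033 to 0.19). Its ranges just failed to overlap and the adjusted p was 0.263. Summed over 28 accessory subunits without Ndufb4, the level was 1.17 times that of wild type.

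**Figure D3:**
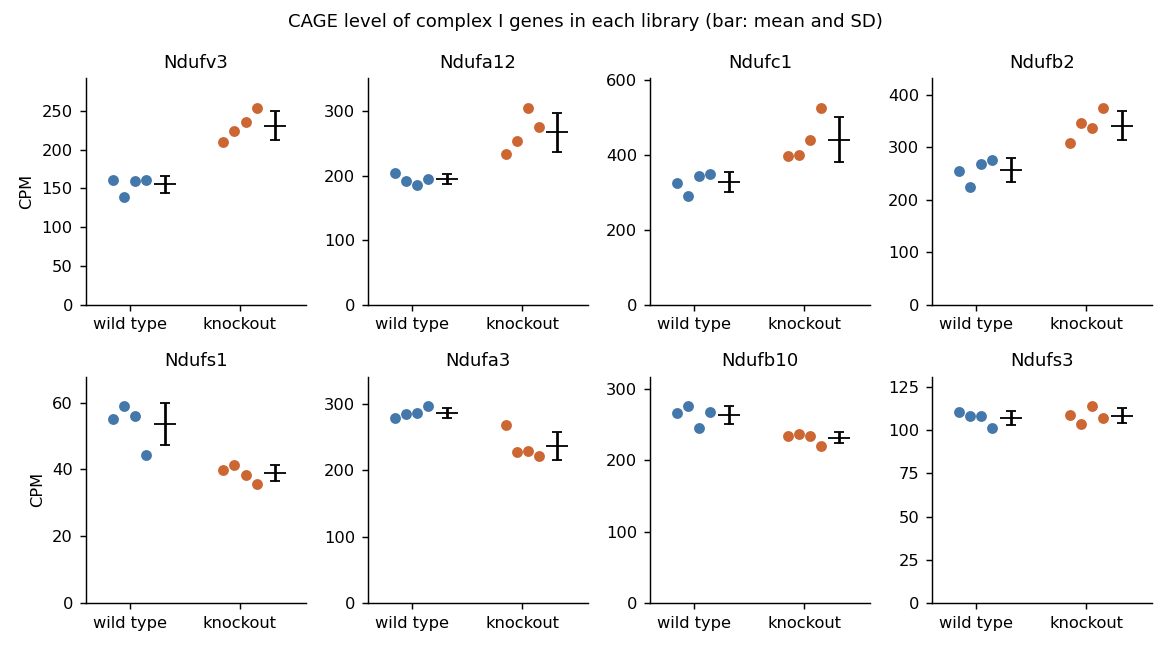
CAGE level in CPM of 8 complex I genes in each of the 4 wild type and 4 knockout libraries (points), with the mean and SD of each genotype as bars. Ndufv3, Ndufa12, Ndufc1 and Ndufb2 are higher in every knockout library, Ndufs1, Ndufa3 and Ndufb10 are lower in every knockout library, and Ndufs3 overlaps.

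Accessory subunits were 29 of the 42 genes and 18 of the 21 that rose. Of the 29, 62.1% were called higher and 6.9% lower (2 genes), beside 16.6% and 14.3% of all tested genes. In the N module the largest rise was that of Ndufv3, a small subunit at the flavin-binding end of the matrix arm. It read 161, 138, 159 and 161 CPM in wild type against 210.4, 224, 236 and 254 CPM in knockout. The lowest knockout library was well above the highest wild type library, and the log2 fold change was 0.57 (SE 0.074, adjusted p = 0.000296). Ndufa12, another accessory subunit of this module, read 204, 191, 186 and 195 CPM in wild type against 233, 254, 305 and 276 CPM in knockout. It rose by 0.45 on the log2 scale (adjusted p = 0.00185).

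Other N module subunits rose by less. Ndufs6, which carries a zinc site and takes part in late assembly, read 216, 223, 230.1 and 206 CPM in wild type against 239, 289, 277 and 268 CPM in knockout (adjusted p = 0.00845). Ndufa7 read 408, 355, 391 and 397 CPM in wild type against 445, 434, 489 and 517 CPM in knockout (adjusted p = 0.0124). For both genes the nearest values of the 2 genotypes were close together. Ndufa6, a subunit of the LYR-motif family, read 361, 381, 359 and 364 CPM in wild type against 395, 437, 419.6 and 424 CPM in knockout (adjusted p = 0.0187). Ndufs4, whose loss is a widely used mouse model of Leigh syndrome, read 164, 172, 164 and 159 CPM in wild type against 177, 190.3, 187 and 194 CPM in knockout (adjusted p = 0.0254). These were among the smaller called rises, of 0.19 and 0.18 on the log2 scale. Ndufa2, the tenth gene of the module, overlapped between genotypes with 488 ± 56.4 and 563 ± 72.6 CPM (adjusted p = 0.149).

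Among Q module accessory genes, Ndufa5 rose and Ndufa9 was not called. Ndufa5 read 353, 345, 355 and 376 CPM in wild type against 433, 433, 443 and 494 CPM in knockout, with a clear gap (log2 fold change 0.33, adjusted p = 0.00215). Ndufa9, at the junction of the arms, averaged 56.7 ± 4.64 CPM in wild type against 50.6 ± 2.6 CPM in knockout (adjusted p = 0.12). In 3 of 17 alternative fits it was called lower.

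In the proximal membrane arm 5 of 9 genes rose (55.6%) and 1 fell (11.1%), beside 16.6% and 14.3% of all tested genes. Ndufc1 read 325, 289, 345 and 347 CPM in wild type against 396, 398, 439 and 525 CPM in knockout (log2 fold change 0.42, adjusted p = 0.00675). Knockout replicate 4 was the highest for it. The X-linked gene Ndufa1 read 344, 314, 336 and 352 CPM in wild type against 379, 400.0, 457 and 486 CPM in knockout (log2 fold change 0.35, adjusted p = 0.00782). Ndufc2 read 399, 393, 397 and 421 CPM in wild type against 472, 491, 504 and 501 CPM in knockout (log2 fold change 0.29, adjusted p = 0.00205), and the values within a genotype were tight.

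Ndufa13, also known as GRIM-19 for its part in cell death signalling, was the most abundant of all 42 transcripts. It read 724, 705, 722 and 749 CPM in wild type against 802, 897, 846 and 868 CPM in knockout (log2 fold change 0.23, adjusted p = 0.00854). Ndufa11 read 306, 313, 335 and 337 CPM in wild type against 351, 386, 386 and 375 CPM in knockout (adjusted p = 0.017). Ndufa3, a small single-pass subunit, was the one that fell. It read 279, 284, 286 and 296 CPM in wild type against 268, 228, 229.6 and 221 CPM in knockout. Knockout replicate 1 was closest to wild type, and the log2 fold change was -0.28 (SE 0.0666, adjusted p = 0.00933). Ndufa8 (adjusted p = 0.316) and Ndufa10 (adjusted p = 0.222) were not called.

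In the distal membrane arm 6 of 11 genes rose (54.5%) and 1 fell (9.09%), beside 16.6% and 14.3% of all tested genes. Ndufb2 read 255, 224, 267 and 276 CPM in wild type against 308, 345, 336 and 375 CPM in knockout (log2 fold change 0.42, adjusted p = 0.00296). Ndufb6 read 290.1, 291, 289 and 288 CPM in wild type against 333, 384, 343 and 378 CPM in knockout (log2 fold change 0.31, adjusted p = 0.00311). Its 4 wild type values had the smallest relative spread of the 41 genes other than Ndufb4, with a coefficient of variation of 0.343%, against a median of 4.41% over these genes in wild type and 5.32% in the knockout.

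Ndufab1, the mitochondrial acyl carrier protein, serves both complex I and mitochondrial fatty acid synthesis. It read 136, 151, 148 and 142 CPM in wild type against 164, 189, 177 and 179.5 CPM in knockout (log2 fold change 0.29, adjusted p = 0.00481). Ndufb3 read 361, 349, 318 and 344 CPM in wild type against 393, 407, 416 and 448 CPM in knockout (adjusted p = 0.00664). The X-linked gene Ndufb11 read 276, 263, 259 and 272 CPM in wild type against 295, 305, 312 and 328 CPM in knockout (adjusted p = 0.0124). The genotypes did not overlap for any of these 3 genes.

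Ndufb7 had the smallest rise that was called. It read 240.3, 228, 254 and 249.6 CPM in wild type against 264, 266, 277 and 285 CPM in knockout (log2 fold change 0.17, adjusted p = 0.0405). Ndufb10 fell, with 267, 276, 246 and 267 CPM in wild type against 234, 237, 235 and 220.0 CPM in knockout (log2 fold change -0.19, adjusted p = 0.0265). For Ndufb10 wild type replicate 3 came closest to the knockout. Ndufb5, Ndufb8 and Ndufb9 were not called, with adjusted p of 0.32, 0.068 and 0.574.

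Among the 12 genes that rose in every alternative fit were Ndufv3, Ndufa12, Ndufc1, Ndufb2, Ndufa1, Ndufa5, Ndufb6, Ndufab1, Ndufs6, Ndufc2 and Ndufa4. Ndufa13, Ndufa7, Ndufb11 and Ndufb3 lost their call only under quantile normalization. The other 5 lost their call under quantile normalization and without single libraries, and 3 of them under other tools as well. Ndufb7 lost its call when any of wild type replicates 1, 2 and 4 and knockout replicates 2, 3 and 4 was left out (adjusted p = 0.0305 to 0.141 across the alternative fits). It was also not called by edgeR (adjusted p = 0.106), by DESeq2 (adjusted p = 0.0936) or with median-ratio scaling (adjusted p = 0.0979). Ndufs4 lost it in the same way for wild type replicates 1, 3 and 4 and knockout replicates 2, 3 and 4 (adjusted p = 0.0178 to 0.0872), and edgeR did not call it either (adjusted p = 0.0523). Ndufaf2 did so for wild type replicates 1, 3 and 4 and knockout replicates 3 and 4 (adjusted p = 0.0301 to 0.104). For Ndufaf2 the adjusted p was 0.0727 with edgeR, 0.0759 with DESeq2 and 0.0763 with median-ratio scaling. Ndufa11 lost it without wild type replicate 1 or knockout replicate 3 (0.0102 to 0.1) and Ndufa6 without wild type replicate 1 or 3 (0.0112 to 0.431). Ndufb10 was no longer called lower when any of wild type replicates 1, 2 and 4 and knockout replicates 3 and 4 was left out (0.00577 to 0.0769), whereas Ndufs1 and Ndufa3 were lower in all of them.

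Promoter sequence was set beside these changes because CAGE counts transcripts at their starts. RefSeq windows (GRCm38.p6, 250 bases before to 50 after an annotated start) were found for 37 of the 42 genes, in 39 windows, and among others not for Ndufa2, Ndufa4l2, Ndufb9 and Ndufs1. The reads were placed on another build, mm9, so these windows are annotation and not start sites measured here. The following 120 bases lie directly upstream of the start of the 2 genes with the largest rise that had a window (Ndufv3 and Ndufa12), of 2 genes that fell (Ndufa3 and Ndufb10) and of Ndufb4, whose level differed most between libraries. Capitals mark GGGCGG or its reverse complement, the GC box bound by SP factors.
Ndufv3 (chr17:31519995-31520114, plus strand): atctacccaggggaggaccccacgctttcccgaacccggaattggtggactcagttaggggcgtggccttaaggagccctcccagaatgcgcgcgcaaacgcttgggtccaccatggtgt
Ndufa12 (chr10:94198915-94199034, plus strand): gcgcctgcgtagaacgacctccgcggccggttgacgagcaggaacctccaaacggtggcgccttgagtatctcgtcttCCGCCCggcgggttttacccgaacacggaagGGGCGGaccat
Ndufa3 (chr7:3617253-3617372, plus strand): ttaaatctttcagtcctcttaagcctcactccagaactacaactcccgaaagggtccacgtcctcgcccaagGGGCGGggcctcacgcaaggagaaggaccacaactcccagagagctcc
Ndufb10 (chr17:24724424-24724543, minus strand): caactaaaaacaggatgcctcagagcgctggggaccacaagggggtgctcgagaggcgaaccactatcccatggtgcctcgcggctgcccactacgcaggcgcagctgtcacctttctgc
Ndufb4 (chr16:37654369-37654488, minus strand): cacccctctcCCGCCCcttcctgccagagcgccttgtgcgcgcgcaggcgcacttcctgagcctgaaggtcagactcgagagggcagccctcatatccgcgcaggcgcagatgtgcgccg

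Over the whole windows, on both strands, GGGCGG was present in 20 of the 39 (51.3%) against 35.7% of all 32851 windows. The ETS motif CCGGAAG was present in 5 (12.8%, against 8.86%), the NRF1 motif GCATGCGC in 4 (10.3%, against 2.71%) and the YY1 core AAGATGG in 7 (17.9%, against 6.34%). Some of these strings can share bases, such as ETS and YY1, and none contains another. Upstream of Ndufs3 the ETS motif shares bases with the reverse complement of GGGCGG. NRF1, YY1 and GABPA, an ETS factor, are known regulators of nuclear genes of the respiratory chain. Windows of genes that rose and of genes that were not called both held each motif. The NRF1 motif, for example, was found in Ndufa6 and Ndufa11, which rose, and in Ndufa8 and Ndufaf4, which were not called. Ndufa3, which fell, held the YY1 core and the GC box. A match of these letters is a description and not a binding site.

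Ndufb4 varied so widely between libraries of the same genotype that a difference between genotypes could not be judged. It read 318, 8.34, 302 and 7.82 CPM in wild type against 118, 406, 9.59 and 11.1 CPM in knockout. Wild type replicates 1 and 3 and knockout replicate 2 were high, knockout replicate 1 was intermediate and the other 4 libraries were low. The log2 fold change of -0.08 had an SE of 1.45 (adjusted p = 0.971), and leaving out 1 library moved it between -1.10 and 0.79. The listed gene Gm3244, named Ndufb4c in a newer annotation, is identical to the first part of an Ndufb4 transcript over 181 nt. It read 10.9, 11, 11.1 and 12.1 CPM in wild type against 16.8, 17.1, 14.6 and 172 CPM in knockout, high in knockout replicate 4 alone. Summed with this copy, Ndufb4 gave 329, 19.3, 313 and 19.9 CPM in wild type against 135, 423, 24.2 and 183 CPM in knockout, and the libraries stayed uneven. How reads were divided between copies was not given in the sources used here, and no biological reading of Ndufb4 is made.

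**Figure D4:**
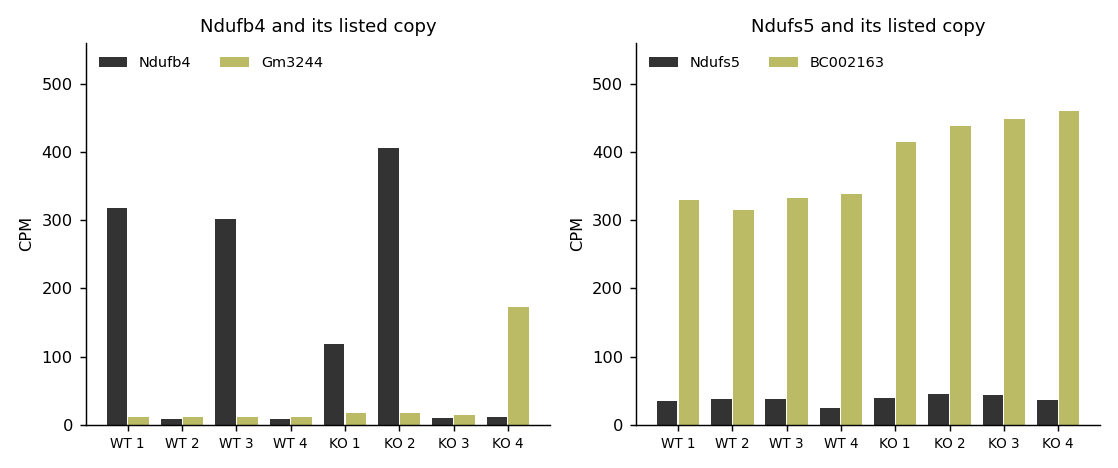
CPM of Ndufb4 and Ndufs5 (dark bars) and of their listed near-identical copies Gm3244 and BC002163 (light bars) in each of the 4 wild type (WT) and 4 knockout (KO) libraries. Ndufb4 is above 300 CPM in 3 libraries and near 10 CPM in 4, while most reads of the Ndufs5 pair are listed under BC002163, at 315 to 338 CPM in wild type against 414 to 460.3 CPM in knockout.

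Ndufs5, an intermembrane space subunit, was not called on its own row. It read 34.6, 38.4, 37.4 and 25.3 CPM in wild type against 39.9, 45, 43.8 and 37 CPM in knockout, with overlap and an adjusted p = 0.0883. Its copy BC002163 matches it at 98.4% identity over 124 nt and averaged 329 ± 9.45 CPM in wild type against 440.1 ± 19.4 CPM in knockout. Summed over both rows the level was 364, 354, 369.9 and 363 CPM in wild type against 454, 483, 492 and 497 CPM in knockout. With the sum in place of the single row the log2 fold change was 0.41 (adjusted p = 0.00027), and 22 of the 42 genes were then called higher. Copies were also listed for Ndufa12, Ndufab1, Ndufb8 and Ndufs3. The sum of Ndufa12 and its copy Gm15920 averaged 211 ± 8.09 CPM in wild type against 287 ± 30.8 CPM in knockout. Copies of the other 3 averaged under 1 CPM.

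Whether the counting used strand is not stated, so reads of overlapping genes on opposite strands may have been mixed, to an extent not known. Gene spans of 16 of the 42 overlap another listed gene, on the same strand for Ndufb8 and Ndufc2 and on the opposite strand for the others. Among 22 genes with neither a copy nor such an overlap, 11 rose (50%) and 1 fell (4.55%), beside 16.6% and 14.3% of all tested genes. Among all 42 genes 50% rose. The part of copies and overlaps in the result was not tested.

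CAGE counts 1 end of each transcript, so CPM can be compared between genes without a length. Assembly factors had lower levels than most subunits, with means of 16.3 to 44.4 CPM. Ndufaf2, a chaperone of late assembly, rose, with 35.2, 36.7, 30.4 and 34.2 CPM in wild type against 37.7, 38.3, 42.4 and 43.9 CPM in knockout (log2 fold change 0.25, adjusted p = 0.0379). The gap between the genotypes was narrow. Ndufaf1, Ndufaf3 and Ndufaf4 were not called, with adjusted p of 0.072, 0.824 and 0.505. A further 4 assembly factors carry clone names in the table and so fell outside the rule. Of these Ndufaf8 (listed as 1810043H04Rik) read 149, 142, 136 and 130.3 CPM in wild type against 163, 168, 162 and 178 CPM in knockout (log2 fold change 0.27, adjusted p = 0.00693). Ndufaf5, Ndufaf6 and Ndufaf7 were not called, with adjusted p of 0.686, 0.106 and 0.473.

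Ndufa4 and Ndufa4l2 share the name but are not counted as complex I subunits, Ndufa4 being a component of cytochrome c oxidase. Ndufa4 read 612, 609, 621 and 598 CPM in wild type against 696, 777, 750.1 and 752 CPM in knockout. The groups were far apart and the log2 fold change was 0.29 (adjusted p = 0.0027). Ndufa4l2, a gene induced by hypoxia, read 55.3, 62, 58.7 and 54.8 CPM in wild type against 60.3, 76.9, 66.2 and 61.9 CPM in knockout. Its ranges overlapped and it was not called (adjusted p = 0.097). Without both genes 20 of 40 rose and 3 fell.

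A second list held complex I genes with other names, namely assembly factors and the subunits encoded by mitochondrial DNA. Of 21 names 12 had a row in the table, none of them mitochondrially encoded. In this list 3 genes rose, 1 fell and 8 were not called, with a median log2 fold change of 0.13. The shares, 25% higher and 8.33% lower of 12 genes, lie near the 16.6% and 14.3% of all tested genes, and nothing is read from them about the list. Lyrm2 averaged 43.4 ± 2.7 CPM in wild type against 53.6 ± 4.07 CPM in knockout (adjusted p = 0.0109). Acad9, an acyl-CoA dehydrogenase that also serves complex I assembly, averaged 30.2 ± 0.412 CPM in wild type against 36 ± 2.4 CPM in knockout (adjusted p = 0.0182). Ecsit, its partner in the same assembly complex, averaged 9.78 ± 1.24 CPM in wild type against 7.63 ± 0.651 CPM in knockout (adjusted p = 0.0383). Timmdc1 (listed as 4930455C21Rik) rose with an adjusted p = 0.0446. Ecsit was not called under quantile normalization or with the replicate number as a block. It was also not called when any of wild type replicates 2 and 3 and knockout replicates 2 and 3 was left out. In all these fits no gene of the list was called lower.

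A further list held genes of complexes II to V. Of 57 tested genes 24 rose and 5 fell, with a median log2 fold change of 0.17. These are 42.1% and 8.77%, beside 16.6% and 14.3% of all tested genes, and the difference from the complex I genes was not tested. With quantile normalization 16 rose and 6 fell. The list was drawn by symbol and holds Cox4nb, now named Emc8 and not a gene of complex IV, and Atp5sl, now named Dmac2 and also in the list of other complex I genes, neither of them called. Cox18, an insertase for a cytochrome c oxidase subunit, had the smallest adjusted p and went from 15.2 ± 0.226 to 31.9 ± 1.58 CPM (adjusted p = 1.88e-06). Sdhc, a membrane anchor of complex II, went from 36.9 ± 3.10 to 17.7 ± 1.84 CPM (adjusted p = 1.98e-05). Cox17, a copper chaperone, went from a mean of 448 to 611 CPM (adjusted p = 0.000348) and Cox8b, a muscle-type subunit, from 31.8 to 56.3 CPM (adjusted p = 0.000443). By the symbols of each complex, Cox4nb and Atp5sl included, 1 of 6 genes of complex II rose and 2 fell, and 4 of 9 rose in complex III. In complex IV 11 of 24 rose and 2 fell, and in complex V 7 of 17 rose and 1 fell. Cycs, which encodes cytochrome c, was counted apart from the complexes and rose (adjusted p = 0.0123). Of all tested genes 16.6% rose and 14.3% fell, and nothing is read from sets as small as complex II.

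Level and transcript length were set beside the fold changes. Across the 42 genes Spearman's rho between log2 fold change and mean CPM was 0.342, and across 13631 tested genes with a known length it was 0.124. Genes share their libraries and are not independent, so these values are a description. With transcript length rho was -0.198 for the 42 genes and -0.021 for 13631 tested genes. Of 14 complex I genes with a median transcript under 600 nt 10 rose and 1 fell, where 27.6% of all 1059 tested genes of that length rose and 11.2% fell. From 600 nt to under 1000 nt 8 of 19 rose and 2 fell, where 17.1% of all such genes rose and 17.3% fell. The part of length in the result was not tested.

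Markers of cells that could alter mitochondrial transcripts were summed beside these results. Cardiac muscle genes, from the muscle sleeve of the pulmonary veins, added up to 581.4 to 832 CPM in wild type against 521.5 to 779 CPM in knockout. Of 12 tested, 2 rose (Myh6 and Cox8b) and 2 fell (Nppa and Sln). Adipocyte genes added up to 60.7 to 149 CPM in wild type against 34.9 to 99.7 CPM in knockout, with 1 of 5 tested lower. Ciliated cell genes added up to 930.1 to 1005 CPM in wild type against 750.0 to 842 CPM in knockout, with 6 of 7 lower. Tppp3, the largest part of this sum, was not called, at a mean of 498 CPM in wild type against 504 CPM in knockout. Ucp1 of the adipocyte list and Dnah5 of the ciliated list were not analysed here. Alveolar type 2 genes added up to 82682 to 99402 CPM in wild type against 49542 to 61578 CPM in knockout. Most of this sum was Sftpc, with a mean of 75406 CPM in wild type against 40739 CPM in knockout. Of the 8 genes 4 were lower (Sftpc, Sftpa1, Slc34a2 and Lyz2). Abca3 was higher, at a mean of 165 CPM in wild type against 313 CPM in knockout. Sftpb, Lamp3 and Etv5 were not called. Of all tested genes 16.6% were called higher and 14.3% lower. The cardiac muscle and adipocyte counts lie near these shares, and nothing is read from them. No list had a higher range in the knockout, and the part of these cells in the result was not tested.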

How the data were processed

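The deposited values are CPM with 2 decimals per gene, made by the authors from single-end CAGE reads of 75 nt. Of tools and builds, the processing notes of the submitters list HISAT2 2.0.5, BWA 0.7.12-r1039, mm9 and edgeR, with no role or order. The sources used here do not give how reads were assigned to genes, or by which annotation. Whole reads were recovered from the CPM steps, with 100% of values whole within 0.1 reads. Among the 42 genes the lowest value was 122 reads (Ndufb4), and for members with few reads or a small spread counting error can be as large as the spread between libraries. No molecular identifiers are mentioned, so several reads may come from 1 molecule.

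A gene was tested if 4 or more libraries reached 1 CPM, which kept 14065 genes and all 42 members. The test was limma 3.58.1 (R 4.3.3, trended variance) of genotype alone, applied to log2(CPM + 0.5). Adjusted p are two-sided Benjamini-Hochberg values over all genes tested, called under 0.05, and come from this fit unless another tool is named. The code was tested on simulated data. Alternatives were other pseudocounts, no filter, 2 other scalings, edgeR 4.0.16 and DESeq2 1.42.0 on the recovered reads, a replicate block, each library left out, and members summed with copies. Copies had at least 97% identity over at least 100 nt of the first 200 nt of a transcript (blastn 2.17.0, GENCODE M21), a length set after the hits were seen.

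The members and lists were chosen with earlier results of these data known. Values in every library were given, by rule, for each called member, the core subunits, Ndufa4 and Ndufa4l2. The values of 1 member are not reported here, though counts and medians include it. From the other lists the rule named called members with the smallest adjusted p. Ndufb4, Ndufs5, their copies, the printed promoters and the promoter and length descriptions were chosen after values were seen.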

Additional observations from a re-analysis of the deposited data

Results flagged for a closer look

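In 5 of 84 sets of 4 libraries (42 genes, 2 genotypes) 1 library stood far from the other 3, measured as its gap to the nearest divided by the whole range and compared with Dixon's critical value. Chance alone flags about 1 in 20 such sets, or 4.2 here. Ndufv3 was lowest in wild type replicate 2, at 138 CPM against 159 to 161 CPM (ratio 0.927). Ndufa8 was lowest in knockout replicate 1, at 191 CPM against 213 to 214 CPM (ratio 0.948). Ndufb5 was lowest in wild type replicate 4, at 252 CPM against 267 to 268 CPM (ratio 0.935). Ndufv1 was lowest in wild type replicate 1, at 111 CPM against 115 to 116 CPM (ratio 0.91), and Ndufa10 in wild type replicate 2, at 52.6 CPM against 59.7 to 61.1 CPM (ratio 0.83). Ndufb4 was not among them, since its high and low libraries were split evenly within wild type.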

How the results depend on the processing

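Across 17 alternatives 12 of the 21 complex I genes that rose and 2 of the 3 that fell kept their call in each. Quantile normalization gave the lowest count, 12 higher and 4 lower (2381 and 2150 over all genes). On the recovered reads edgeR gave 18 and 4 (2247 and 2326 over all genes) and DESeq2 19 and 3 (2189 and 2266). Median-ratio scaling gave 19 and 4, and sums with listed copies 22 and 3. Leaving out 1 library gave 16 to 23 higher and 2 to 3 lower. For the other complex I genes leaving out 1 library gave 1 to 3 higher and 0 to 1 lower, while median-ratio scaling, edgeR and DESeq2 each gave 2 lower, and quantile normalization and the replicate block each gave 0 lower. For complexes II to V quantile normalization gave 16 higher and 6 lower, and leaving out 1 library gave 18 to 25 higher and 3 to 5 lower. The cause was not tested. Of the 18 uncalled complex I genes 6 were called in some alternative. Ndufa9 was lower with median-ratio scaling (adjusted p = 0.0482, limma), by edgeR (0.0458) and without wild type replicate 4 (0.0386, limma). Ndufv1 was lower under quantile normalization (0.0362, limma). Without knockout replicate 1 Ndufb8 (0.0245, limma) and Ndufv2 (0.0497) were higher. Ndufs5 and Ndufa4l2 gained a call with a replicate block, and Ndufs5 also when summed with its copy. No called gene changed sign.

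The replicate numbers did not pair the libraries, since deviations of same-numbered libraries correlated at 0.043, 0.026, -0.003 and 0.065. With the number as a replicate block 22 complex I genes were higher and 3 lower, against 21 and 3 without it, with Ndufs5 (adjusted p = 0.0254, limma) and Ndufa4l2 (0.0392) gaining a call and Ndufaf2 losing it (0.0671). Over all genes the block gave 2384 higher and 2014 lower.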
